A study of Mus musculus with 24 samples.

Results

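The transforming growth factor beta (TGF-beta) pathway was followed in mouse liver through 10 genes: the ligands Tgfb1, Tgfb2 and Tgfb3, the receptors Tgfbr1, Tgfbr2 and Tgfbr3, the signal transducers Smad2 and Smad3, the inhibitor Smad7, and the induced matrix gene Tgfbi. They were chosen by symbol and make up 10 of the 41388 genes in the count tables. All 4 groups were male mice on the C57BL/6J background that carried floxed Lpin1 alleles. In Adn-Lpin1-/- mice a Cre recombinase driven by the adiponectin promoter (Adipoq-cre) deleted Lpin1, which encodes the phosphatidic acid phosphatase lipin 1, in adipocytes, while wild-type (WT) littermates were homozygous for the floxed allele without Cre. Feeding began at 8 weeks of age with a low-fat diet (LFD, 10% of kcal from fat) or a high-fat diet (HFD, 60% of kcal from fat), and mice were fasted for 4 h before the tissue was taken. The labels give 16 weeks of feeding, whereas 5 weeks is given for the mice on these diets in the description of the study, so the duration is uncertain. Each group held 5 single-mouse libraries, 20 in all, and 1 library pooled from the same 5 mice.

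TGF-beta ligands are secreted as latent complexes, in which latency proteins hold the ligand in the matrix or on a cell surface until an integrin or a protease frees it. The freed ligand binds the type II receptor Tgfbr2, which activates the type I receptor Tgfbr1, and Tgfbr1 phosphorylates Smad2 and Smad3, which enter the nucleus with Smad4. In liver the pathway is best known for turning stellate cells into collagen-producing myofibroblasts, and the ligands come largely from macrophages, endothelium and stellate cells, whereas hepatocytes make up most of the tissue.

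Of the 10 genes 9 were tested, as Tgfb2 lay below the filter on low counts, and Tgfbr1 was the single one that passed between genotypes. Every Adn-Lpin1-/- mouse had less Tgfbr1 mRNA than every WT mouse on the same diet, on LFD and on HFD. The ligands Tgfb1 and Tgfb3 had higher means in Adn-Lpin1-/- livers on both diets, with adjusted p-values just above 0.05 for Tgfb3 on LFD and Tgfb1 on HFD. Around these genes, the collagen genes Col1a1, Col1a2 and Col3a1 among the pathway's targets were higher in Adn-Lpin1-/- livers on both diets, as were all 4 latent TGF-beta binding proteins on LFD and 3 of them on HFD, and the receptors Acvr2a, Bmpr2 and Bmpr1a of the wider family were lower. Of all these, Tgfbr1, Ltbp3 and Ltbp4 on HFD and Bmpr1a on both diets were no longer called once a trend with GC content was removed. Of all 19 tested target genes, the collagen genes included, 9 were called higher on LFD and 6 on HFD, and none lower. By sign alone, 6 of the 19 had a fold change below 0 on LFD and 4 on HFD.

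Upstream sequences are shown for Tgfbr1, because it is the gene that changed, and for Tgfb1, the most abundant of the 3 ligands. They are the 250 bases before an annotated start in the RefSeq promoter table (build GRCm38.p6), read 5′ to 3′ on the gene's strand. Capitals mark each GC box, searched as GGGCGG on either strand (CCGCCC on the other), a short motif bound by Sp1-type factors. The Tgfbr1 stretch is chr4:47352972-47353221 on the plus strand and the Tgfb1 stretch is chr7:25686752-25687001 on the plus strand.
Tgfbr1: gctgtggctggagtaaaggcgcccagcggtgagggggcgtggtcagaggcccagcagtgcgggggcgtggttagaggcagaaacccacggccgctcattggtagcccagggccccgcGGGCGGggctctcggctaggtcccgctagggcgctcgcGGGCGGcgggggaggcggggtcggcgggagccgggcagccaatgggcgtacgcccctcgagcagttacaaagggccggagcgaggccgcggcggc
Tgfb1: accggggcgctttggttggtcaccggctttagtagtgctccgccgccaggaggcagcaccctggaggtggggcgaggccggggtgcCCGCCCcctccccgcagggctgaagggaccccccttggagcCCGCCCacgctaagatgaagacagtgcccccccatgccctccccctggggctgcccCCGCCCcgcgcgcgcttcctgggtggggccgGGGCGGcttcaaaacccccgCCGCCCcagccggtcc
The Tgfbr1 stretch holds 2 GC boxes and the Tgfb1 stretch 5, and at least 1 was found in 32.7% of the 32851 promoter windows of the same length. The GC content was 74.8% for Tgfbr1 and 75.2% for Tgfb1, against a median of 52.4% over all windows. The SMAD core motif CAGAC, searched on either strand, was in 42.2% of all windows and in neither of these stretches. The table has another start for Tgfbr1, whose 250 bases (chr4:47385966-47386215, 52.8% GC) hold 1 CAGAC and no GC box. Of the 10 genes, 6 had an entry in the promoter table (Tgfb1, Tgfb2, Tgfbr1, Tgfbr2, Smad3 and Tgfbi).

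Counts of reads per gene were scaled to library size as CPM with TMM factors, which correct for differences in library composition. Single-mouse libraries held between 36260187 and 81072794 counts. On LFD the WT libraries, from 36260187 to 45999456 counts, were all shallower than the Adn-Lpin1-/- libraries, from 51095146 to 61435897, so that depth and genotype cannot be told apart on that diet. Lpin1 itself ranged from 142 to 673 CPM in WT and from 322 to 1195 CPM in Adn-Lpin1-/- livers on LFD, and from 137 to 556 and from 120 to 580 CPM on HFD. The deletion lies in adipocytes, so Lpin1 in liver does not check the genotype. The hepatocyte markers Alb, Ttr, Apoa1, Cyp2e1, Cps1 and Hnf4a were summed in each mouse. On LFD the sums ran from 106700 to 115900 CPM in WT and from 78570 to 103500 CPM in Adn-Lpin1-/- livers, without overlap. On HFD they ran from 100200 to 123800 and from 81750 to 107600 CPM, with overlap.

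The genes differ widely in level when compared per length, in the deposited RPKM (reads scaled for gene length and library size). Over the 20 mice the mean was 14.2 RPKM for Tgfbi, 7.68 for Tgfbr2, 3.42 for Tgfb1, 2.86 for Tgfbr1, 2.80 for Smad2, 2.38 for Smad3, 2.16 for Smad7, 1.06 for Tgfbr3, 0.26 for Tgfb3 and 0.12 for Tgfb2. In WT mice on LFD, Tgfbr2 (5.91 to 8.78 RPKM) lay above Tgfbr1 (2.86 to 3.37 RPKM) in every mouse. Tgfbr1, Smad2, Smad7, Tgfb1 and Smad3 followed with ranges that overlapped from each gene to the next, Tgfbr3 stood apart below them at 0.645 to 1.15 RPKM, and Tgfb3 and Tgfb2 formed the lowest, overlapping pair. In Adn-Lpin1-/- livers on both diets Tgfb1 came next after Tgfbi and Tgfbr2. On LFD its range overlapped that of the next gene, and on HFD its range of 3.71 to 7.68 RPKM lay wholly above that of Smad2, the next gene, at 2.41 to 3.28 RPKM.

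**Figure D1:**
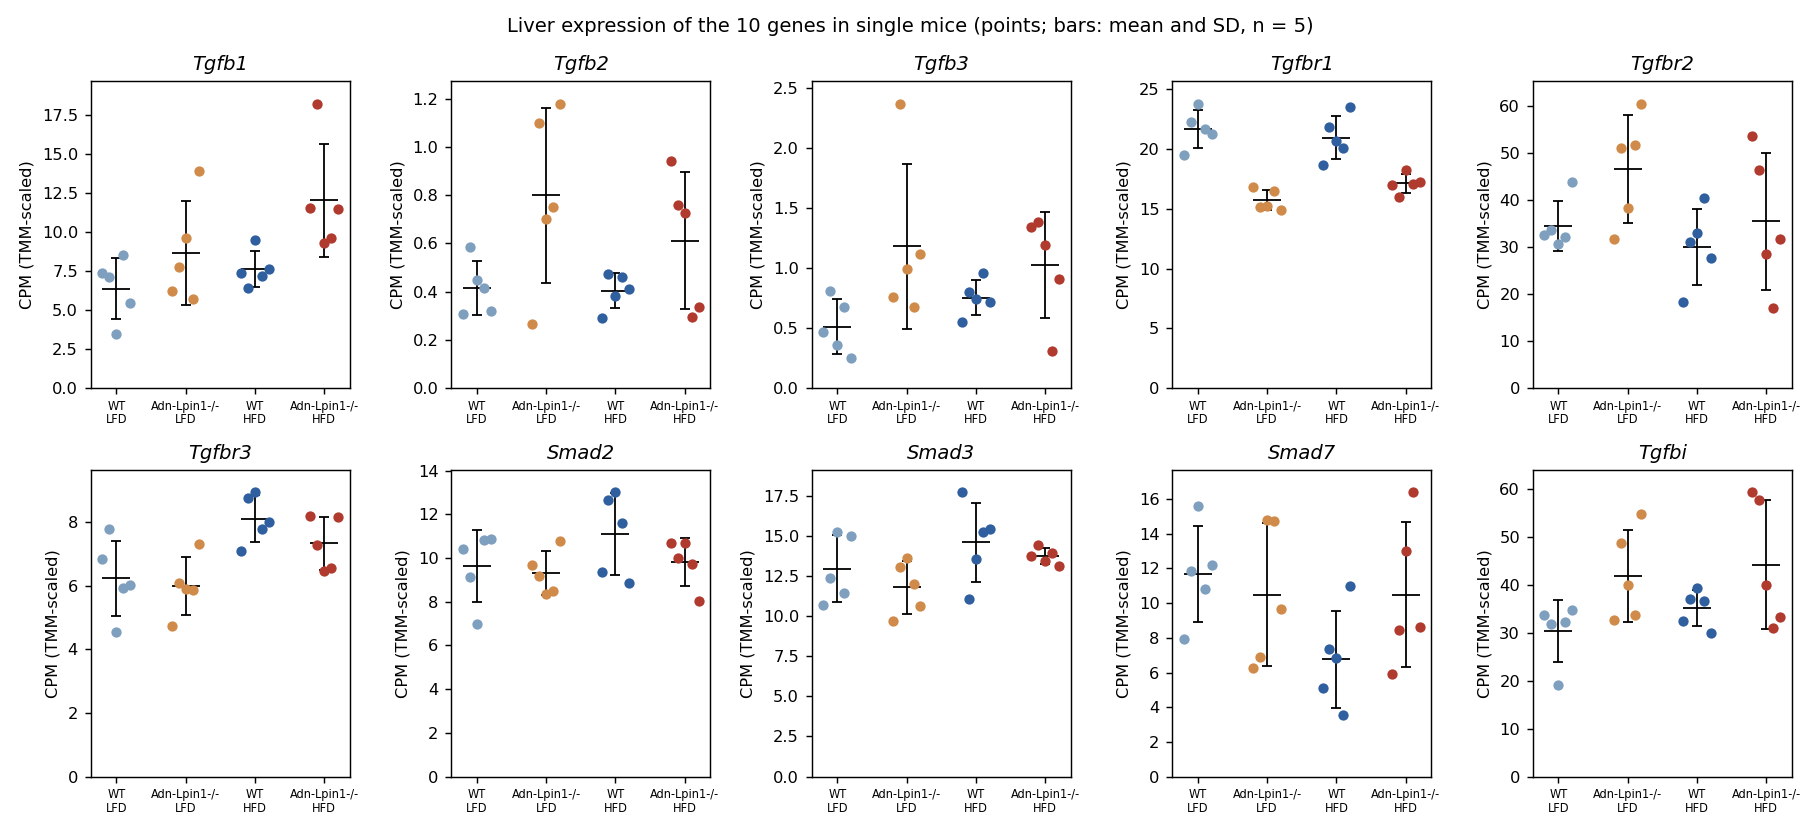
Expression of the 10 genes in CPM (vertical axis, from 0 in each panel) in the 4 groups, with 1 point a mouse and bars for the mean and SD of 5 mice. The Tgfbr1 points of Adn-Lpin1-/- mice lie below all WT points on both diets, while for the other 9 genes the genotypes overlap on each diet.

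The ligands come first. Tgfb1, the main profibrotic ligand, lies at chr7:25687002-25705077 (plus strand, GRCm38) and was measured with 116 to 1224 reads a mouse. In WT mice 1 to 5 on LFD it stood at 7.36, 7.11, 3.46, 8.55 and 5.42 CPM. Their Adn-Lpin1-/- counterparts had 6.21, 7.75, 9.65, 5.73 and 13.9 CPM. On LFD the groups overlapped, and 1 Adn-Lpin1-/- mouse stood well above the rest. The log2 fold change was 0.44 (SE 0.25, edgeR adjusted p = 0.253).

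On HFD the Tgfb1 values were 7.35, 6.43, 9.51, 7.18 and 7.64 CPM in WT mice. In Adn-Lpin1-/- mice they were 11.6, 18.3, 9.30, 9.65 and 11.5 CPM. The groups touched at 1 point only, where the highest WT mouse lay above the lowest Adn-Lpin1-/- mouse. Means were 7.62 ± 1.15 and 12.0 ± 3.62 CPM (SD, n = 5), and the log2 fold change of 0.66 (SE 0.24) did not pass the test (edgeR adjusted p = 0.0627). DESeq2 called the same difference (adjusted p = 0.0340), as did edgeR fitted on the HFD groups alone (adjusted p = 0.0306), and without the highest mouse it was 0.46 (edgeR adjusted p = 0.210).

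Tgfb3, which acts in matrix turnover and repair, was scarce, at 10 to 123 reads a mouse (chr12:86056744-86079041, minus strand). WT mice on LFD had 0.463, 0.810, 0.357, 0.678 and 0.247 CPM. Adn-Lpin1-/- mice on LFD had 0.758, 2.37, 0.988, 0.673 and 1.12 CPM. The groups overlapped through their nearest values, and mouse 2 of the Adn-Lpin1-/- group was far above the others. The log2 fold change was 1.19 (SE 0.40), with an edgeR adjusted p of 0.0514 just above the threshold. DESeq2 called it (adjusted p = 0.0234), and leaving out mouse 2 of the Adn-Lpin1-/- group left 0.78 (edgeR adjusted p = 0.198). On HFD the means were 0.755 ± 0.150 CPM in WT and 1.03 ± 0.443 CPM in Adn-Lpin1-/- livers (SD, n = 5; log2 fold change 0.45, SE 0.38, edgeR adjusted p = 0.429).

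Tgfb2, the ligand of lowest level per length (12 to 72 reads a mouse; chr1:186623186-186705992, minus strand), was left out of the genes tested, which had to exceed 1 CPM in 4 or more of the 20 libraries. Its mean level was 0.416 ± 0.112 CPM in WT and 0.799 ± 0.365 CPM in Adn-Lpin1-/- livers on LFD, and 0.404 ± 0.0730 and 0.612 ± 0.285 CPM on HFD (SD, n = 5). Two-sided exact permutation tests on log2 CPM gave p = 0.0794 on LFD and p = 0.198 on HFD, and 0.317 and 0.397 after Benjamini-Hochberg adjustment over 4 comparisons, where the smallest p that 252 arrangements allow is 0.00794. The exons of Tgfb2 overlap those of Gm29491, a gene on the opposite strand, by 127 bases, and without a stated strand setting reads there cannot be told apart.

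The type I receptor Tgfbr1, the kinase that passes the signal to Smad2 and Smad3, lies at chr4:47353222-47414931 (plus strand, gene ENSMUSG00000007613) and was measured with 757 to 1557 reads a mouse. WT mice on LFD had 19.5, 22.2, 23.8, 21.7 and 21.3 CPM. Adn-Lpin1-/- mice on LFD had 16.8, 15.2, 15.2, 16.5 and 14.9 CPM. No mouse of either group reached into the range of the other. The level was 21.7 ± 1.57 CPM in WT and 15.7 ± 0.877 CPM in Adn-Lpin1-/- livers (SD, n = 5), 1.38-fold lower, with a log2 fold change of -0.46 (SE 0.07, 95% interval -0.60 to -0.32, edgeR adjusted p = 0.000191).

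On HFD, Tgfbr1 stood at 18.7, 21.8, 20.7, 20.1 and 23.6 CPM in WT mice. In Adn-Lpin1-/- mice it stood at 17.03, 16.0, 18.3, 17.04 and 17.3 CPM. Again the groups did not overlap, although the lowest WT and the highest Adn-Lpin1-/- mouse were close. The level was 20.97 ± 1.83 CPM in WT and 17.1 ± 0.799 CPM in Adn-Lpin1-/- livers, 1.22-fold lower (log2 fold change -0.29, SE 0.07, 95% interval -0.43 to -0.15, edgeR adjusted p = 0.0064). Leaving out any 1 mouse kept both calls, with edgeR adjusted p-values up to 0.000933 on LFD and up to 0.0222 on HFD. The raw read counts, which are not scaled to depth, overlapped on LFD at 757 to 989 in WT and 786 to 956 in Adn-Lpin1-/- libraries. In bulk liver, fewer cells that express a gene and less of its mRNA per cell cannot be told apart.

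Fold changes between genotypes moved with base composition over all genes. The longest Tgfbr1 transcript has 41.0% GC, which places it in the lowest of 10 equal bins of genes by GC content (30.96% to 41.39%). In that bin the median log2 fold change was -0.13 on LFD and -0.15 on HFD, and 24.6% and 25.8% of the genes were called lower, against 8.11% and 8.78% of all tested genes. When the GC trend of each library was removed, a choice made after seeing the data, Tgfbr1 remained lower on LFD (log2 fold change -0.32, edgeR adjusted p = 0.0045) and was no longer called on HFD (log2 fold change -0.15, edgeR adjusted p = 0.120). What moved with GC content, in the tissue or in the libraries, was not tested.

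**Figure D2:**
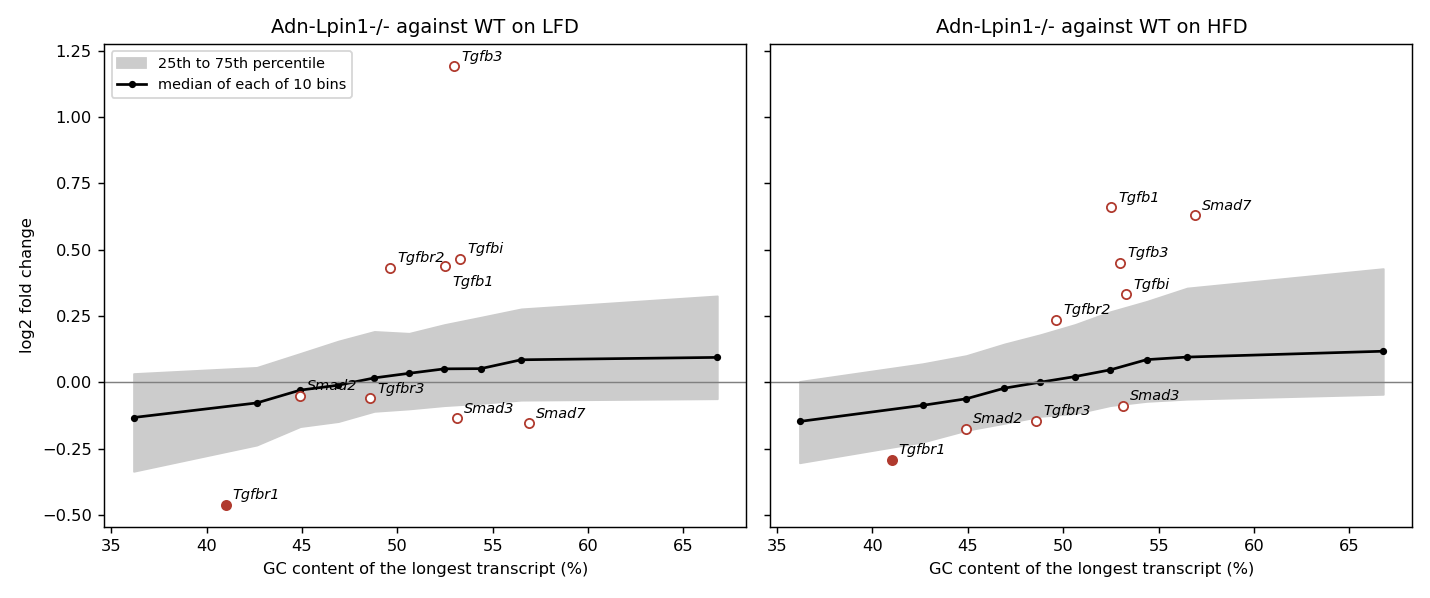
Log2 fold change of Adn-Lpin1-/- against WT livers (vertical axis) by GC content of the longest transcript in percent (horizontal axis), on LFD at the left and HFD at the right. The black line joins the medians of 10 equal bins of the tested genes, grey shading spans the 25th to 75th percentile, and red points are the 9 tested genes, filled where called; Tgfbr1, at 41.0% GC, lies in the part where the median is -0.13 and -0.15.

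Tgfbr2, the ligand-binding type II receptor, was the most abundant receptor per length (chr9:116087698-116175363, minus strand). On LFD it stood at 34.5 ± 5.32 CPM in WT and 46.6 ± 11.5 CPM in Adn-Lpin1-/- livers (SD, n = 5; log2 fold change 0.43, SE 0.25, edgeR adjusted p = 0.262). On HFD it stood at 30.1 ± 8.08 and 35.4 ± 14.6 CPM (log2 fold change 0.24, SE 0.25, edgeR adjusted p = 0.534). Adn-Lpin1-/- mice on HFD spread from 16.97 to 53.5 CPM, the wider of the ranges on that diet, and the groups overlapped on both diets. The 2 receptors of the signalling complex had fold changes of opposite sign, with 95% intervals of -0.60 to -0.32 for Tgfbr1 and -0.08 to 0.95 for Tgfbr2 on LFD, and the difference between them was not tested.

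Tgfbr3 (betaglycan), a co-receptor that presents ligand to Tgfbr2 (chr5:107106570-107289629, minus strand), was not called between genotypes. It stood at 6.23 ± 1.20 CPM in WT and 5.99 ± 0.909 CPM in Adn-Lpin1-/- livers on LFD, and at 8.12 ± 0.749 and 7.34 ± 0.837 CPM on HFD (SD, n = 5). The 95% intervals of the log2 fold change were -0.33 to 0.21 on LFD and -0.41 to 0.12 on HFD (edgeR adjusted p = 0.807 and 0.457).

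The receptor-activated Smad2 and Smad3 were not called between genotypes. Smad2 stood at 9.64 ± 1.65 CPM in WT and 9.31 ± 0.992 CPM in Adn-Lpin1-/- livers on LFD, and at 11.1 ± 1.89 and 9.83 ± 1.10 CPM on HFD (SD, n = 5). Its 95% intervals on the log2 scale were -0.32 to 0.22 and -0.44 to 0.09 (edgeR adjusted p = 0.835 and 0.360). Smad3 stood at 12.96 ± 2.08 and 11.8 ± 1.63 CPM on LFD, and at 14.6 ± 2.45 and 13.7 ± 0.494 CPM on HFD. Its intervals were -0.39 to 0.12 and -0.34 to 0.16 (edgeR adjusted p = 0.484 and 0.644). A difference of the size seen for Tgfbr1 on LFD, -0.46, lies outside the intervals of both genes on LFD, while that seen on HFD, -0.29, lies inside those on HFD. The phosphorylated proteins, by which these SMADs act, were not measured.

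Smad7, the inhibitory SMAD that the pathway itself induces, varied widely among mice of the same group. WT mice on HFD had 5.13, 7.34, 6.81, 3.54 and 10.96 CPM. Adn-Lpin1-/- mice on HFD had 5.92, 8.43, 13.03, 16.4 and 8.61 CPM. The groups overlapped, with 2 Adn-Lpin1-/- mice above every WT mouse, and the log2 fold change of 0.63 (SE 0.31) did not pass the test (edgeR adjusted p = 0.157). On LFD the means were 11.7 ± 2.75 CPM in WT and 10.5 ± 4.12 CPM in Adn-Lpin1-/- livers (SD, n = 5; log2 fold change -0.15, SE 0.31, edgeR adjusted p = 0.781).

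Tgfbi, which encodes a secreted matrix protein induced by TGF-beta, was the most abundant of the 10 genes per length (chr13:56609603-56639339, plus strand). On LFD, WT mice had 33.8, 31.8, 19.1, 32.3 and 34.8 CPM. Adn-Lpin1-/- mice on LFD had 32.6, 48.8, 40.0, 33.8 and 54.8 CPM. A pair of Adn-Lpin1-/- mice lay within the WT range and the other 3 above it, and the log2 fold change was 0.47 (SE 0.19, edgeR adjusted p = 0.110). On HFD the values were 32.4, 37.0, 39.4, 36.7 and 30.1 CPM in WT mice and 59.3, 57.7, 39.9, 31.0 and 33.3 CPM in Adn-Lpin1-/- mice, with 3 of the latter above every WT mouse and a log2 fold change of 0.33 (SE 0.19, edgeR adjusted p = 0.234).

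Set against all 13052 tested genes, the 9 tested members were not called more often. On LFD 1 of 9 was called, against 14.4% of all tested genes. On HFD 1 of 9 was called, against 18.6%. The groups did not overlap for 1 of 9 members on each diet, against 10.1% of all tested genes on LFD and 11.4% on HFD. The median log2 fold change of the 9 members was -0.05 on LFD and 0.24 on HFD, against 0.01 and 0.00 over all tested genes.

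**Figure D3:**
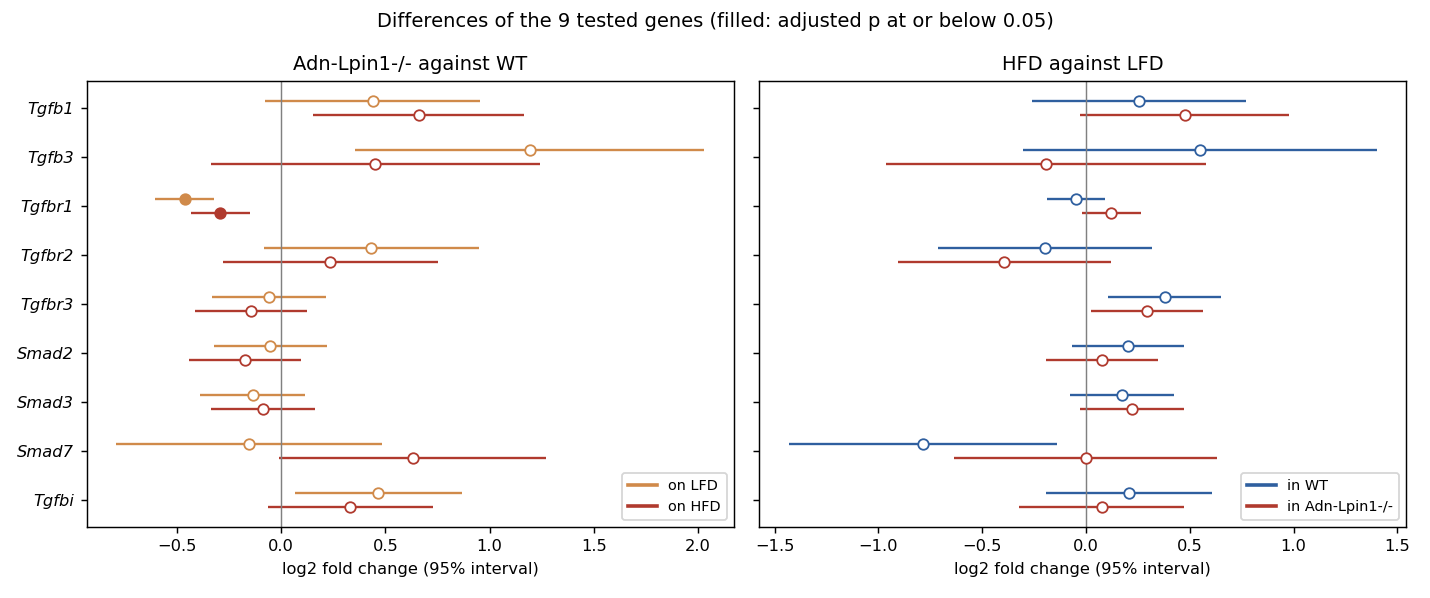
Log2 fold changes (points) with 95% intervals (lines) of the 9 tested genes, for Adn-Lpin1-/- against WT at the left and HFD against LFD at the right, filled for called genes (adjusted p no higher than 0.05). The filled points are those of Tgfbr1, at -0.46 on LFD and -0.29 on HFD.

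Diet gave no call among the members. None passed the edgeR test between HFD and LFD in WT mice, where 1.1% of all tested genes were called. None passed it in Adn-Lpin1-/- mice, where 2.46% were called. Neither DESeq2 nor limma voom called a member. Of all 13052 tested genes these called 400 and 670 in WT mice, and 577 and 364 in Adn-Lpin1-/- mice. At an unadjusted p under 0.05 in edgeR there were 2 members in WT mice, Tgfbr3 and Smad7, and 1 in Adn-Lpin1-/- mice, Tgfbr3. Tgfbr3 was at 4.56 to 7.78 CPM on LFD and 7.11 to 8.94 CPM on HFD in WT mice (log2 fold change 0.38, SE 0.13, edgeR adjusted p = 0.161), and the fold change in Adn-Lpin1-/- mice was 0.29 (SE 0.13, edgeR adjusted p = 0.264). Smad7 in WT mice was at 7.93 to 15.6 CPM on LFD and 3.54 to 10.96 CPM on HFD (log2 fold change -0.79, SE 0.31, edgeR adjusted p = 0.217).

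Whether the effect of genotype differed with diet was tested as an interaction. No member was called by edgeR, DESeq2 or limma voom, and no member had an unadjusted p under 0.05 in edgeR. Of all 13052 tested genes edgeR called 0.0% (938 had an unadjusted p under 0.05), limma voom called 0 and DESeq2 called 30. For Tgfbr1 the HFD minus LFD difference of the log2 fold changes was 0.17 (SE 0.10, 95% interval -0.03 to 0.37, edgeR adjusted p = 0.759). For Smad7 it was 0.79 (SE 0.43, 95% interval -0.12 to 1.69, edgeR adjusted p = 0.750), and the remaining intervals also held 0.

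Beyond the 10 genes, 5 lists of other pathway genes held 84 genes, 72 of them tested. The lists were chosen with earlier results of these data known, so their counts describe the genes listed and do not test the pathway. On LFD 21 of the 72 were called higher and 9 lower in Adn-Lpin1-/- livers, where 6.27% of all tested genes were called higher and 8.11% lower. On HFD 16 were called higher and 7 lower, against 9.87% and 8.78%. With the GC trend of each library removed, 18 were higher and 7 lower on LFD and 10 higher and 5 lower on HFD.

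Of 12 tested genes in the list for latency and activation of TGF-beta, 5 rose and 1 fell in Adn-Lpin1-/- livers on each diet. The others were not called, and the median of the 12 log2 fold changes was 0.59 on LFD and 0.49 on HFD. On LFD the latent TGF-beta binding proteins rose together, Ltbp1 by a log2 fold change of 1.39, Ltbp2 by 1.16, Ltbp3 by 1.10 and Ltbp4 by 0.75, as did the gelatinase gene Mmp2 by 1.15. On HFD those that rose were Thbs1, which encodes the ligand activator thrombospondin 1, by 1.28, Ltbp2 by 1.27, Ltbp3 by 0.72, Ltbp4 by 0.55 and Lrrc32, which encodes the cell-surface tether GARP, by 0.50. Ltbp1 on HFD had a log2 fold change of 0.32 that did not pass the test (edgeR adjusted p = 0.522). Ltbp4 was the most abundant by CPM of the binding proteins named, at 31.6 ± 6.61 CPM in WT and 53.1 ± 12.9 CPM in Adn-Lpin1-/- livers on LFD (SD, n = 5; edgeR adjusted p = 0.0048), a comparison of read numbers that is not per length. The gene that fell was Itgav, the integrin alpha-v subunit that pulls on latent ligand, by 0.44 on the log2 scale on LFD (edgeR adjusted p = 0.0162) and 0.54 on HFD (edgeR adjusted p = 0.0042). Without the GC trend Mmp2 on LFD and Ltbp3, Ltbp4 and Lrrc32 on HFD were no longer called.

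Among other ligands and receptors of the family, 2 of 17 rose and 5 fell on LFD, and 2 rose and 4 fell on HFD. Eng (endoglin), an endothelial co-receptor, rose by a log2 fold change of 0.65 on LFD and 0.61 on HFD. Acvrl1 (ALK1), its type I partner in endothelium, rose by 0.63 on HFD, and the ligand gene Bmp4 by 0.49 on LFD. Of the receptors of bone morphogenetic proteins and activins, 4 fell on LFD and 3 on HFD. Acvr2a, a type II activin receptor, had log2 fold changes of -0.52 on LFD and -0.57 on HFD, and Bmpr2, the type II receptor of bone morphogenetic proteins, of -0.42 and -0.53. Both had no overlap between the 5 mice of each genotype on either diet (edgeR adjusted p = 0.000851 and 0.000326 for Acvr2a, 0.0054 and 0.000904 for Bmpr2). Bmpr1a, a type I receptor, had -0.30 and -0.27, Acvr2b -0.88 on LFD, and Inhba, which encodes the activin A subunit, -1.30 and -1.06. Transcripts of Acvr2a (39.9% GC), Bmpr2 (41.0%), Bmpr1a (41.3%) and Inhba (41.4%) lie at the low end of GC content as Tgfbr1 does. With the GC trend removed Acvr2a, Bmpr2 and Inhba were still called lower on both diets and Bmpr1a on neither, and Bmp4 on LFD was lost too.

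Of the 5 other SMADs, Smad5, a transducer of bone morphogenetic protein signals, fell on LFD (log2 fold change -0.23, edgeR adjusted p = 0.0179). On HFD Smad4, the partner shared by all receptor-activated SMADs, fell (log2 fold change -0.26, edgeR adjusted p = 0.0141) and the inhibitory Smad6 rose (log2 fold change 0.46, edgeR adjusted p = 0.0297). Smad4 had no overlap between genotypes on HFD, at 30.9 ± 2.06 CPM in WT and 25.8 ± 2.08 CPM in Adn-Lpin1-/- livers (SD, n = 5). With the GC trend removed, Smad4 kept its call and Smad5 and Smad6 did not. Smad5 was also the only gene of the 72 called between diets: it was higher on HFD in WT (log2 fold change 0.27, edgeR adjusted p = 0.0354) and in Adn-Lpin1-/- livers (0.32, edgeR adjusted p = 0.0069), without overlap between the diets in either genotype.

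Of 19 tested regulators, 5 rose and 2 fell on LFD, and 2 rose and 1 fell on HFD. Fkbp1a, which encodes FKBP12, a protein that binds type I receptors and keeps them inactive, rose by a log2 fold change of 0.39 on LFD (edgeR adjusted p = 0.0018) and 0.27 on HFD (edgeR adjusted p = 0.0174), with no overlap between genotypes on either diet. Pmepa1, a feedback inhibitor induced by TGF-beta, rose by 0.67 and 0.76. On LFD the activin-binding Fst (follistatin) rose by 1.35, the ligand-binding proteoglycan gene Dcn (decorin) by 0.57 and the ubiquitin ligase gene Nedd4l by 0.33. The ubiquitin ligase genes Wwp1, at -0.45 on LFD and -0.32 on HFD, and Smurf2, at -0.26 on LFD, fell. Removal of the GC trend ended the calls of Pmepa1 on LFD and of Fkbp1a and Wwp1 on HFD.

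Of 19 tested target genes, 9 were called higher on LFD and 6 on HFD, and none was called lower on either diet. Among the 19, counted by sign alone, 6 had a fold change below 0 on LFD and 4 on HFD. The median log2 fold change of the 19 was 0.71 on LFD and 0.60 on HFD. The fibrillar collagen genes Col1a1 (2.85 on LFD, 2.27 on HFD), Col3a1 (1.94 and 1.60) and Col1a2 (1.88 and 1.54) led the list together with the cell-cycle inhibitor gene Cdkn1a (2.35 and 1.83). Acta2, which encodes the smooth muscle actin of myofibroblasts, rose by 1.48 and 1.15, and the actin-binding Tagln by 0.73 and 0.60, of which the HFD call was lost with the GC trend removed (edgeR adjusted p = 0.0563). On LFD the collagen cross-linking enzyme gene Loxl2 (1.33) and Ccn2 (1.27), which encodes connective tissue growth factor, also rose. Col1a1 in Adn-Lpin1-/- livers stood at 33.6 ± 26.6 CPM on LFD and 32.8 ± 29.1 CPM on HFD (SD, n = 5), spreads close to the means. Without mouse 2 of the Adn-Lpin1-/- group on HFD, 11 of the 72 pathway genes were called on HFD (5 higher, 6 lower) in place of 23, and without mouse 1 of that group 15.

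**Figure D4:**
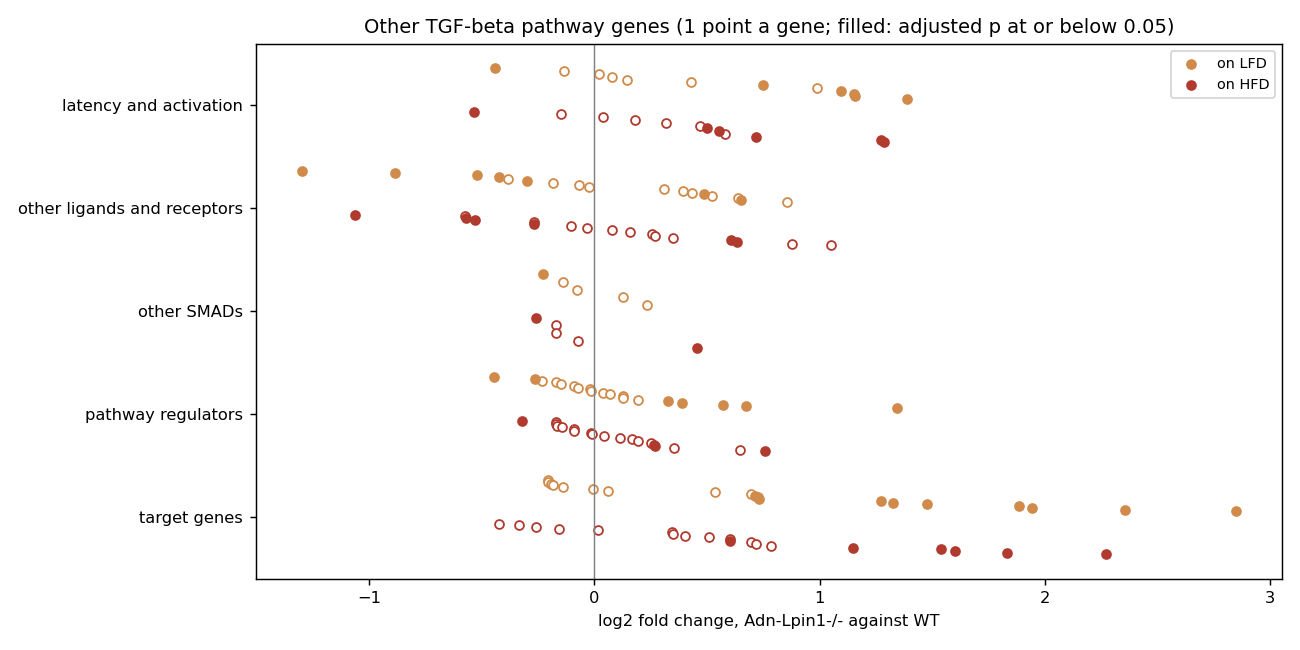
Log2 fold change of Adn-Lpin1-/- against WT livers (horizontal axis) for the tested genes of the 5 pathway lists (vertical axis), 1 point a gene, orange on LFD and red on HFD, filled for called genes (adjusted p no higher than 0.05). Target genes and latency genes extend to the right, up to 2.85 for Col1a1 on LFD, and filled points at the left include the receptors Acvr2a, Bmpr2 and Bmpr1a on both diets.

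Markers of other liver cells moved with genotype beside these genes, and their part in the results was not tested. The 6 myofibroblast markers, all of which are also in the list of target genes, summed to 13.2 to 39.1 CPM in WT and 49.0 to 254 CPM in Adn-Lpin1-/- mice on LFD, and to 28.3 to 55.5 and 34.7 to 258 CPM on HFD, and all 4 of them that were tested rose on both diets. Kupffer cell and macrophage markers summed to 116 to 214 and 146 to 292 CPM on LFD and to 142 to 181 and 186 to 434 CPM on HFD, and 1 of 10 rose on LFD and 7 of 10 on HFD. Sinusoidal endothelium markers summed to 119 to 187 and 168 to 285 CPM on LFD and to 134 to 196 and 222 to 243 CPM on HFD, and 3 and 5 of 8 rose. Of all tested genes, 6.27% were called higher on LFD and 9.87% on HFD. The mouse with the most Tgfb1 in each Adn-Lpin1-/- group, mouse 5 on LFD and mouse 2 on HFD, also had the highest macrophage sum of its group, at 292 and 434 CPM. In neither WT group was this so. On LFD, WT mouse 4 had the most Tgfb1 and mouse 1 the highest sum. On HFD, WT mouse 3 had the most Tgfb1 and the lowest sum, at 142 CPM. Adn-Lpin1-/- mouse 5 on LFD was also highest for the stellate cell (374.2 CPM), endothelium, lymphocyte, neutrophil and adipocyte sums, and lowest for the hepatocyte sum. Adn-Lpin1-/- mouse 2 on HFD was also highest for the lymphocyte, neutrophil and adipocyte (183.5 CPM) sums. Other mice of these groups were highest for the myofibroblast, cholangiocyte and mesothelium sums on both diets, and for the stellate cell and endothelium sums on HFD. For Tgfb3 and the myofibroblast sum, the highest Adn-Lpin1-/- mouse was the same on LFD (mouse 2, 254 CPM) and not on HFD (mouse 2 for Tgfb3, mouse 1 for the sum). For Tgfbi it was the same on HFD (mouse 1, 258 CPM) and not on LFD (mouse 5 for Tgfbi, mouse 2 for the sum). Among WT mice the highest for Tgfb3 and the myofibroblast sum was the same on HFD (mouse 4, 55.5 CPM) and not on LFD. For Tgfbi and the sum the highest WT mouse was the same on LFD (mouse 5, 39.1 CPM) and not on HFD.

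Of 10 stellate cell markers 1, Pdgfrb, rose on each diet, against 6.27% of all tested genes on LFD and 9.87% on HFD. No cholangiocyte (5 tested), mesothelium (2 tested) or lymphocyte marker (1 tested) was called, and the 4 neutrophil markers were below the filter. Unadjusted p-values under 0.05 were found for 3 cholangiocyte and 2 mesothelium markers on LFD and for none on HFD. None of 6 hepatocyte markers was called on LFD (3 at an unadjusted p under 0.05 in edgeR), and 4 were lower on HFD. Of all tested genes, 8.11% were called lower on LFD and 8.78% on HFD. The adipocyte markers summed to 0.261 to 4.63 CPM in WT and 1.80 to 36.1 CPM in Adn-Lpin1-/- mice on LFD, and to 1.42 to 16.6 and 3.96 to 183.5 CPM on HFD. In Adn-Lpin1-/- mice 1 to 5 on HFD the sums were 146.6, 183.5, 68.6, 6.96 and 3.96 CPM, and mice 1, 2 and 3 also had the highest myofibroblast sums of that group, at 258, 181.5 and 95.9 CPM. Of the adipocyte markers Cfd (adipsin) alone was tested and rose, by a log2 fold change of 3.76 on LFD and 3.81 on HFD. Lep, Plin1 and Retn were at 0 in 14, 16 and 12 of the 20 libraries. Adipoq was at 0 in 2 of the 20 libraries, with up to 168 reads and a median of 0.0481 CPM. Cfd alone averaged 81.8 ± 81.2 CPM in Adn-Lpin1-/- livers on HFD (SD, n = 5), so the adipocyte sums of that group mainly reflect Cfd.

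The genes whose levels followed Tgfbr1 most closely from mouse to mouse, with the group means removed, were Mgea5, which encodes the O-GlcNAc hydrolase, and the predicted gene Gm5239. Pearson's r of log2 CPM over the 20 mice was 0.855 for Mgea5 and 0.843 for Gm5239 (Spearman's rho 0.842 and 0.777), as a description of libraries that share their depth and composition across genes. Neither was called between genotypes. Mgea5 stood at 40.7 ± 5.10 CPM in WT and 35.9 ± 4.44 CPM in Adn-Lpin1-/- livers on LFD (edgeR adjusted p = 0.200), and Gm5239 at 1.69 ± 0.473 and 1.43 ± 0.327 CPM (edgeR adjusted p = 0.495).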

How the data were processed

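Poly-A selected liver RNA, reverse transcribed with random hexamers, was sequenced from 20 mice in 4 groups, with 4 pooled libraries left out as repeats. The authors aligned reads to the Ensembl release 76 assembly (GRCm38) with STAR 2.5.1a and counted uniquely aligned, unambiguous reads per gene with featureCounts 1.4.6-p5. The strand setting is not given in the sources used here. The deposited files hold counts per gene and also the authors' CPM and RPKM. Tests used the counts, levels between genes the deposited RPKM, and the deposited CPM were checked but not used for tests.

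Symbols were matched for 97.26% of the 41388 genes. After 355 ribosomal RNA genes were set aside, 13052 genes that exceeded 1 CPM in 4 or more of the 20 libraries were tested. edgeR 4.0.16 (R 4.3.3) fitted 4 groups with TMM scaling and quasi-likelihood F tests, called at a Benjamini-Hochberg adjusted p of 0.05 or less over all tested genes. The SE is the log2 fold change divided by the root of F. CPM in the text carry TMM factors. Scripts were tested on simulated data. GC content is that of the longest GENCODE M21 transcript, and promoters are from RefSeq.

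Named genes were the 10 members, list genes called in a genotype contrast (up to 8 a list and contrast, largest change first), and for each called member the 2 genes of highest correlation. A single target gene of the lists is not reported by name here. Members and lists were chosen with earlier results of these data known. Alternatives were DESeq2 1.42.0, limma voom 3.58.1 with quality weights, other scaling, filters and fits, pools added, the replicate number as a block, each mouse left out, and, chosen after seeing the data, robust variances and removal of GC or GC and length trends.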

Additional observations from a re-analysis of the deposited data

Results flagged for a closer look

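Within groups of 5 mice, 4 of 40 sets of values had a mouse far from the others by Dixon's test, and chance alone gives about 1 in 20. Tgfb1 stood at 18.3 CPM in mouse 2 of the Adn-Lpin1-/- group on HFD, and Tgfb3 at 2.37 CPM in mouse 2 of the Adn-Lpin1-/- group on LFD, each the highest of its group. Tgfbr2 was highest at 43.8 CPM in mouse 5 of the WT group on LFD, and Tgfbi lowest at 19.1 CPM in mouse 3 of that group. None of these is a value of Tgfbr1.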

How the results depend on the processing

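Tgfbr1 was called lower on LFD under every alternative run, and on HFD under every one except removal of the GC trend (-0.15, edgeR adjusted p = 0.120) or of the GC and length trends (-0.18, edgeR adjusted p = 0.0877). Of the tested members, 1 was called on LFD: DESeq2 called 2 and edgeR with pools 3, adding Tgfb3 and, with pools, Tgfbi. On HFD, where 1 was called, DESeq2, pools and a fit of the HFD groups alone each called 2, adding Tgfb1, and removal of the GC trend, or of the GC and length trends, left 0. Leaving out single mice gave 1 to 2 calls on each diet. Between diets in WT mice, 0 members were called, and 1 with pools (Tgfbr3). Of the 72 pathway genes, 23 were called on HFD, against 15 with the GC trend removed and 11 to 27 with single mice left out. In WT mice 1 was called between diets, against 3 with DESeq2, 3 with voom, 4 with pools, 0 without a filter, 0 with only the groups compared and 0 with the replicate block, and 0 to 2 without single mice. In Adn-Lpin1-/- mice 1 was called, against 3 with pools and 1 to 2 without single mice. The replicate numbers did not pair the mice, and the block ended no call of a member.

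Signs that turned were those of uncalled values near 0. They were Smad2 by genotype on LFD (0.0009 with the GC trend removed), the Smad3 interaction (-0.0156 with voom) and Smad7 by diet in Adn-Lpin1-/- mice (0.0059 with the replicate block). With single mice left out they were Tgfb3 by diet in Adn-Lpin1-/- mice (-0.34 to 0.22), Tgfbr3 by genotype on LFD (-0.157 to 0.0341), the Tgfbr3 interaction (-0.19 to 0.0006), the Smad3 interaction (-0.0354 to 0.117), and by diet in Adn-Lpin1-/- mice Smad7 (-0.23 to 0.16) and Tgfbi (-0.0535 to 0.189). The causes of these shifts were not tested. Precision is limited by 5 mice a group, by 10 to 123 reads for Tgfb2 and Tgfb3, and by the lower depth of WT libraries on LFD.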

Other observations

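The 4 pooled libraries, each made from the 5 mice of a group, gave values inside the range of those mice in 31 of 36 cases for the 9 tested members. The 5 outside included Tgfbr1 in the Adn-Lpin1-/- pool on LFD, at 18.5 CPM against 14.9 to 17.02 CPM in the single mice scaled with it, and Tgfb3 in the WT pool on HFD, at 0.493 CPM against 0.548 to 0.969 CPM.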
